A study of Homo sapiens with 4 samples.

Results

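Apolipoproteins and the carrier proteins of plasma were examined in cells of the human hepatocellular carcinoma line Huh7 that had been sorted by flow cytometry into a CD133+ and a CD133- population. Members were the probe sets whose only gene symbol in the platform annotation was one of 44 listed genes. Of these, 40 had such a probe set, out of 19775 named genes on the array, with 71 probe sets between them. Expression of APOC4, LIPC, GC and SAA4 is not analysed here. The study is read as 1 array of CD133+ cells and 1 array of CD133- cells, and each population was deposited once as RMA values (log2) and once as MAS5 signal (linear), taken here as summaries of the same array. Both populations came from the same cell line, and the labels name no genotype, agent or time. CD133, the product of PROM1, is widely taken to mark the cells of a liver cancer that found new tumours, and the comparison asks what sets cells with this marker apart. There was no replicate array, hence no replicate error and no test for any value given here. Differences are CD133+ minus CD133-, on the RMA scale unless MAS5 is named.

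Hepatocytes secrete most plasma proteins. Apolipoprotein B is loaded with lipid by the microsomal transfer protein and leaves the cell as a very-low-density lipoprotein, while the small A, C and E apolipoproteins move between lipoprotein particles and act as ligands or as activators and inhibitors of lipases. Albumin, transthyretin, retinol-binding protein, haptoglobin and hemopexin carry hormones, vitamins, haem or haemoglobin. These genes are a usual measure of how much of the hepatocyte programme a liver cancer line has kept.

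Most members lay within 0.5 of equality on the log2 scale, a smaller share than among all genes, and those that differed by more were mostly lower in CD133+ cells. Of the 40 genes, 33 lay above the brightness floor, an RMA value of 4.86 in the brighter population, which is the median of that value over all probe sets. Folds in counts are of the values as measured, and a fold against a value below the floor is given as a bound. Among these 33, APOD was at least 2-fold higher in CD133+ cells, and A1BG and VSIG1 were at least 2-fold lower. Across all 12899 genes above the floor, 1.65% were at least 2-fold higher and 0.116% at least 2-fold lower. At 1.5-fold, ASGR1 joined the lower members for a count of 3, against 1.01% of all genes, and the 1 higher member was set against 3.67%. The members were listed with earlier results of these arrays known, A1BG and VSIG1 among them, so the count of lower members is a description. Within 0.5 on the log2 scale lay 25 of the 33 members, against 93.8% of all genes, and within 0.25 lay 16, against 78.2%. The members' median difference was -0.06, against -0.01 for all genes, and 19 members were lower, 13 higher and 1 equal, where 51.1% of all genes were lower. The difference between probe sets of the same gene, the only technical spread at hand, had an SD of 0.24 over 16955 pairs above the floor and of 0.22 over the 29 pairs among members. It leaves out variation between sorts, cultures and hybridizations. In sorted populations measured in bulk, fewer cells of a kind and less RNA per cell cannot be told apart.

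**Figure D1:**
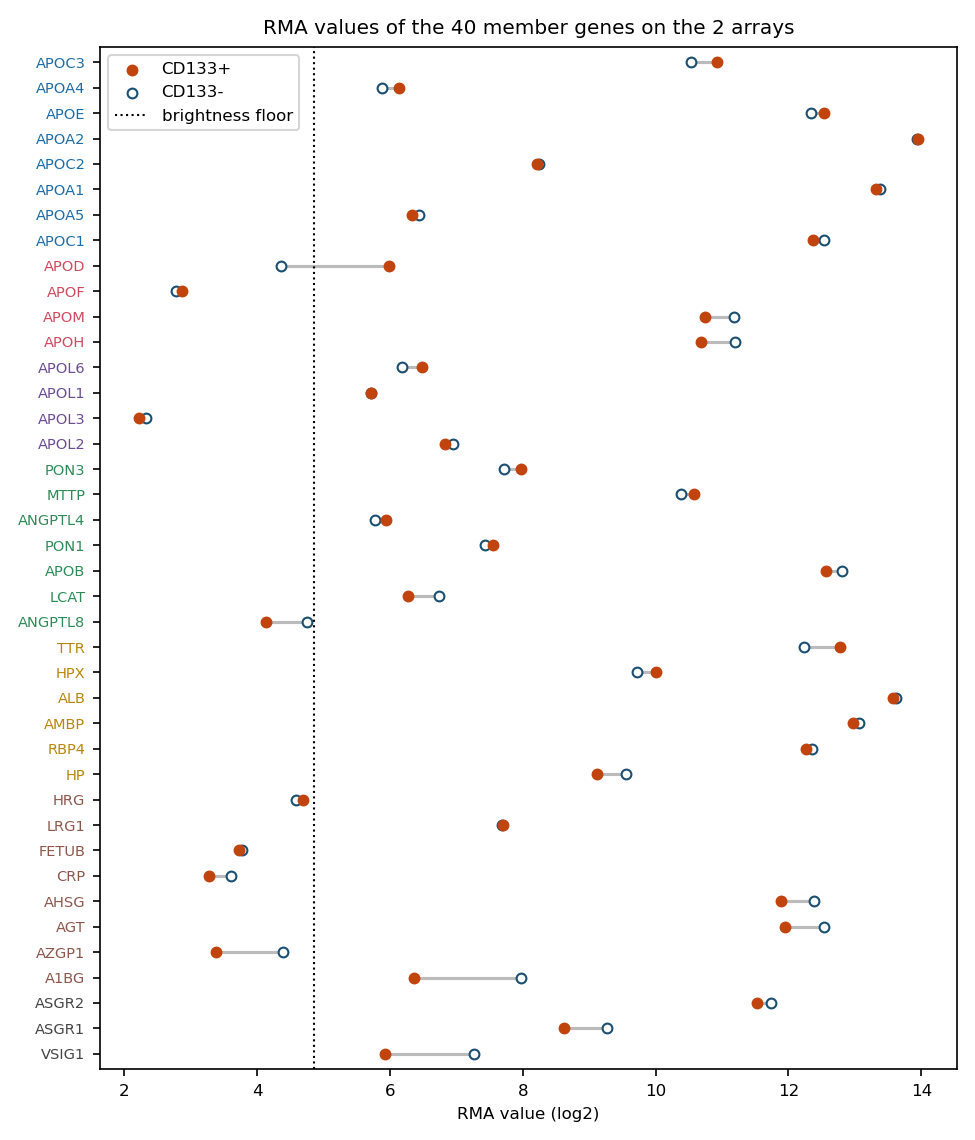
RMA value (log2, horizontal) of each of the 40 member genes (vertical, coloured by role group) on the CD133+ array (filled) and the CD133- array (open), with the brightness floor at 4.86 as a dotted line. Values of different genes come from different probe sets and are not comparable with each other; the widest gaps belong to APOD, A1BG and VSIG1.

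The sort marker and lineage genes were read first. PROM1 had an RMA value of 10.49 in CD133+ cells and 5.33 in CD133- cells, which matched the labels. All 8 measured hepatocyte markers lay above the floor, with differences from -0.16 for the iron carrier TF to 0.55 for TTR. Of the markers of other cells, 4 of 5 measured blood genes, 1 of 3 macrophage genes, 2 of 4 endothelial genes and 2 of 5 stromal genes lay above the floor, with differences from -0.25 for CD14 to 0.57 for CD3D. By MAS5 the T-cell gene CD3D had signals of 356 in CD133+ and 101 in CD133- cells, a difference of 1.82. The leukocyte gene PTPRC, the macrophage genes CD163 and VSIG4, the endothelial genes CDH5 and KDR and the stromal genes DCN, COL3A1 and ACTA2 lay below the floor in both populations. Of 5 bile duct markers, KRT19 and EPCAM were at least 2-fold higher in CD133+ cells. CFTR was at least 1.31-fold higher against the floor, under which its CD133- value lay. KRT7 and SOX9 differed by 0.08 and -0.04. The summed MAS5 signal of the 5 was 22667 in CD133+ and 11065 in CD133- cells. Of this, EPCAM held 10156.5 in CD133+ and 4263 in CD133- cells, and KRT19 held 7772 in CD133+ and 1786 in CD133- cells. Of 5 enterocyte markers, SI was at least 2-fold higher, CDX2 and VIL1 differed by 0.69 and 0.38, and FABP2 lay below the floor. FABP1 differed by -0.01. Their summed MAS5 signal was 51648 in CD133+ and 47763 in CD133- cells. Most of it came from FABP1, with 44184.5 in CD133+ and 43683.7 in CD133- cells. Whether these markers have a part in the differences below was not tested.

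On their brightest probe sets, the small A, C and E apolipoproteins differed little by RMA. All 8 measured genes lay above the floor and within 0.5 of equality, 4 higher and 4 lower, with a median of -0.02. APOC3, an inhibitor of lipoprotein lipase, was the highest: its RMA values were 10.92 in CD133+ cells and 10.53 in CD133- cells, and its MAS5 signals were 9538 in CD133+ cells and 6961 in CD133- cells. Its second probe set differed by 0.13. APOC1, which inhibits the exchange of cholesteryl esters, was the lowest with -0.17, from values of 12.36 in CD133+ and 12.53 in CD133- cells, and its second probe set differed by -0.12. APOE, the ligand of LDL-receptor family members, was higher on all 3 of its probe sets, by 0.19, 0.21 and 0.21. APOA4, which enterocytes also make, differed by 0.26 on its single probe set. The main protein of HDL, APOA1, and its partner APOA2 had differences of -0.06 and 0.01. APOC2, the cofactor of lipoprotein lipase, differed by -0.04 by RMA and by 0.20 by MAS5. APOA5, which promotes triglyceride clearance, differed by -0.10 on its brighter probe set, whose MAS5 signals lay below the MAS5 floor of 91.8, and by -0.52 on the other. That second probe set had MAS5 signals of 115 in CD133+ and 266 in CD133- cells, both above the MAS5 floor, a difference of -1.21, so the size of the APOA5 difference varied with the probe set and the algorithm.

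Members of the apolipoprotein clusters had differences of both signs, most of them small. On chromosome 11, APOA5, APOA4, APOC3 and APOA1 lie in a row by RefSeq's gene order, and the middle pair was higher while APOA5 and APOA1 had values of -0.10 and -0.06, within the SD between probe sets of a gene. On chromosome 19, APOE was higher while APOC1 and APOC2, from the same cluster, were lower, each by less than that SD, and by MAS5 APOC2 and the second APOC1 probe set were higher, by 0.20 and 0.23. On chromosome 3, AHSG and FETUB are neighbours, and FETUB lay below the floor on all 3 of its probe sets. Outside these clusters, the paraoxonase neighbours PON1 and PON3, lactone-cleaving enzymes carried on HDL, were both higher, by 0.12 and 0.26. The PON1 difference was within the SD between probe sets of a gene. The neighbouring asialoglycoprotein receptor genes ASGR1 and ASGR2 were both lower, as given further on, ASGR2 by less than that SD.

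The remaining soluble apolipoproteins held the member of largest positive difference. APOD, a lipocalin made by many tissues outside the liver, had an RMA value of 5.98 in CD133+ cells and 4.36 in CD133- cells. The CD133- value lay below the floor, which makes it at least 2.18-fold higher in CD133+ cells on the RMA scale, and it stood 76th from the top among the 12899 genes. Its MAS5 signals of 210 in CD133+ and 104 in CD133- cells, both above the MAS5 floor, gave a smaller value, 2.02-fold higher. APOD has 1 probe set, so no second measurement on the array bears on it, and it drops out of the genes counted as bright at a floor of the 75th percentile. APOM, the HDL lipocalin that carries sphingosine phosphate, was lower by 0.43 and 0.38 on its 2 probe sets. For APOH, a plasma glycoprotein that binds anionic phospholipids, RMA values were 10.68 in CD133+ and 11.19 in CD133- cells, and its 2 probe sets were lower by 0.52 and 0.74. APOF, an inhibitor of lipid transfer, lay below the floor.

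Apolipoprotein L genes, whose products act inside cells except for the secreted APOL1, differed little by RMA. APOL6 was higher by 0.30, with 6.48 in CD133+ and 6.18 in CD133- cells, and the other bright probe sets gave differences of 0.06 and 0.16. APOL1 had the same deposited RMA value of 5.71 in both populations, as did 418 of all 12899 genes above the floor. Among members above both floors, APOL2 was the one on which the algorithms differed most: its RMA difference was -0.12, from 6.83 in CD133+ and 6.95 in CD133- cells, whereas its MAS5 signals were 32.7 in CD133+ and 99.5 in CD133- cells. The CD133+ signal lay below the MAS5 floor, so that APOL2 was at least 1.08-fold lower by MAS5. The other APOL2 probe set gave -0.17 by RMA and -0.90 by MAS5. APOL3 lay below the floor.

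Genes of apolipoprotein B assembly and of lipoprotein remodelling were within 0.5 of equality. APOB itself had RMA values of 12.56 in CD133+ and 12.81 in CD133- cells, a difference of -0.25 by both algorithms, and -0.12 on its second probe set. MTTP, the microsomal transfer protein that lipidates it, was higher by 0.20. PON3 was the highest of the 6 genes above the floor, with 7.97 in CD133+ and 7.71 in CD133- cells. LCAT, the plasma enzyme that esterifies HDL cholesterol, was the lowest, with 6.28 in CD133+ and 6.74 in CD133- cells, a difference of -0.47. Its MAS5 signals of 178 in CD133+ and 368 in CD133- cells differed more, by -1.04. ANGPTL4, a lipase inhibitor induced by fasting, differed by 0.17, with MAS5 signals below the MAS5 floor, and ANGPTL8, its insulin-induced relative, lay below the RMA floor in both populations, with 4.13 in CD133+ and 4.76 in CD133- cells.

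Among the carriers of hormones, vitamins and haem, TTR was the highest and HP the lowest. TTR, which carries thyroxine and retinol-binding protein, had RMA values of 12.78 in CD133+ and 12.23 in CD133- cells and MAS5 signals of 35317 in CD133+ and 24409 in CD133- cells, 1.46-fold higher by RMA. HP, the haemoglobin scavenger haptoglobin, had 9.12 in CD133+ and 9.55 in CD133- cells, 1.35-fold lower. HPX, the haem carrier hemopexin, was higher on both probe sets by RMA, by 0.29 and 0.22. By MAS5 the same probe sets differed by 0.30 and -0.01. Albumin (ALB), retinol-binding protein (RBP4) and the bikunin precursor AMBP differed by -0.05, -0.09 and -0.08 on their brightest probe sets. RBP4 and TTR, whose proteins circulate as a complex, had differences of opposite sign, that of RBP4 within the SD between probe sets. The median of the 6 carriers was -0.07.

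**Figure D2:**
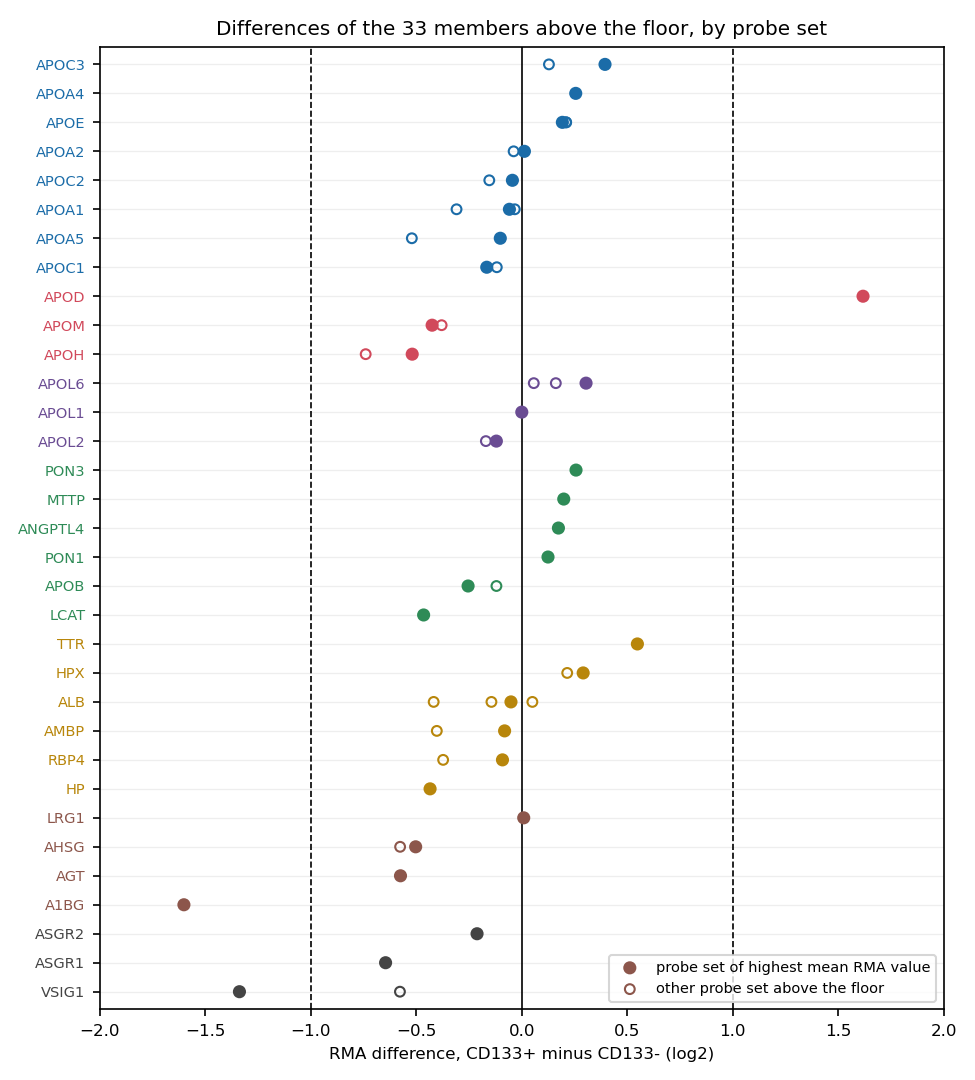
RMA difference, CD133+ minus CD133- (log2, horizontal), of the 33 members above the floor (vertical, coloured by role group), on the probe set of highest mean RMA value (filled) and on other probe sets above the floor (open). Dashed lines mark 2-fold; APOD lies beyond the right one, A1BG and VSIG1 beyond the left one, and the second VSIG1 probe set lies at -0.58.

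Of 4 other plasma glycoproteins above the floor, 3 were lower in CD133+ cells, where 51.1% of all genes were. A1BG, a plasma glycoprotein of the immunoglobulin superfamily, had an RMA value of 6.37 in CD133+ cells and 7.97 in CD133- cells, a 3.04-fold lower level and the lowest difference of all 12899 genes. By MAS5 its signals were 348 in CD133+ and 1517 in CD133- cells, 4.36-fold lower in CD133+ cells, and it has no second probe set. AGT, the precursor of angiotensin, had 11.95 in CD133+ and 12.53 in CD133- cells, 1.49-fold lower. AHSG, the calcium-binding inhibitor fetuin A, had 11.89 in CD133+ and 12.39 in CD133- cells on its brighter probe set, and its 2 probe sets were lower by 0.50 and 0.58. LRG1, a leucine-rich glycoprotein of the acute phase, differed by 0.01. The heparin-binding glycoprotein HRG, the fetuin FETUB, the acute-phase protein CRP and the zinc-binding glycoprotein AZGP1 lay below the RMA floor in both populations. AZGP1 had RMA values of 3.38 in CD133+ and 4.39 in CD133- cells, and MAS5 signals of 48.9 in CD133+ and 121 in CD133- cells, of which only the second passed the MAS5 floor.

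All 3 listed surface proteins were lower, where 51.1% of all genes were. VSIG1 was listed with earlier results of these arrays known, so this count is a description. ASGR1, the main subunit of the hepatocyte receptor that removes desialylated glycoproteins from plasma, had 8.62 in CD133+ and 9.27 in CD133- cells, 1.56-fold lower. ASGR2, its second subunit, was lower by 0.21, within the SD between probe sets of a gene. VSIG1, a junctional immunoglobulin-domain protein known from stomach and not a plasma protein, had 5.93 in CD133+ and 7.27 in CD133- cells, a 2.53-fold lower level and the third lowest difference of all genes. Its MAS5 signals were 314 in CD133+ and 743 in CD133- cells. The second VSIG1 probe set had 4.41 in CD133+ cells, below the floor, and 4.99 in CD133- cells. With these values as measured, the mean over both probe sets, -0.96, no longer reached 2-fold. The second probe set had MAS5 signals of 60.1 in CD133+ cells, below the MAS5 floor, and 193 in CD133- cells.

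On the brightest probe sets of the 30 members above both floors, only APOC2 had opposite signs by RMA and MAS5. Dimmer probe sets of APOA2, APOB, APOC1, APOC2, APOL6 and HPX above the RMA floor also had opposite signs. One of APOL6 differed by 0.06 by RMA and by -0.34 by MAS5. A1BG and VSIG1 were at least 2-fold lower by both algorithms, as were 0.0862% of all genes above both floors, and APOD was at least 2-fold higher by both, as were 1.68%. In MAS5 signals as measured, 5 of 32 members were 2-fold or more lower, where 1.71% of all genes were, and 1 was 2-fold or more higher, where 4.47% were. The 5 were A1BG, VSIG1 and LCAT, with both signals above the MAS5 floor, and APOL2 and AZGP1, whose CD133+ signals lay below it and whose bounds against it were at least 1.08-fold and at least 1.32-fold lower. Both algorithms were taken to summarize the same arrays, in which case a shared direction is not independent. As the members, A1BG and VSIG1 among them, were listed with earlier results of these arrays known, these counts are a description.

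**Figure D3:**
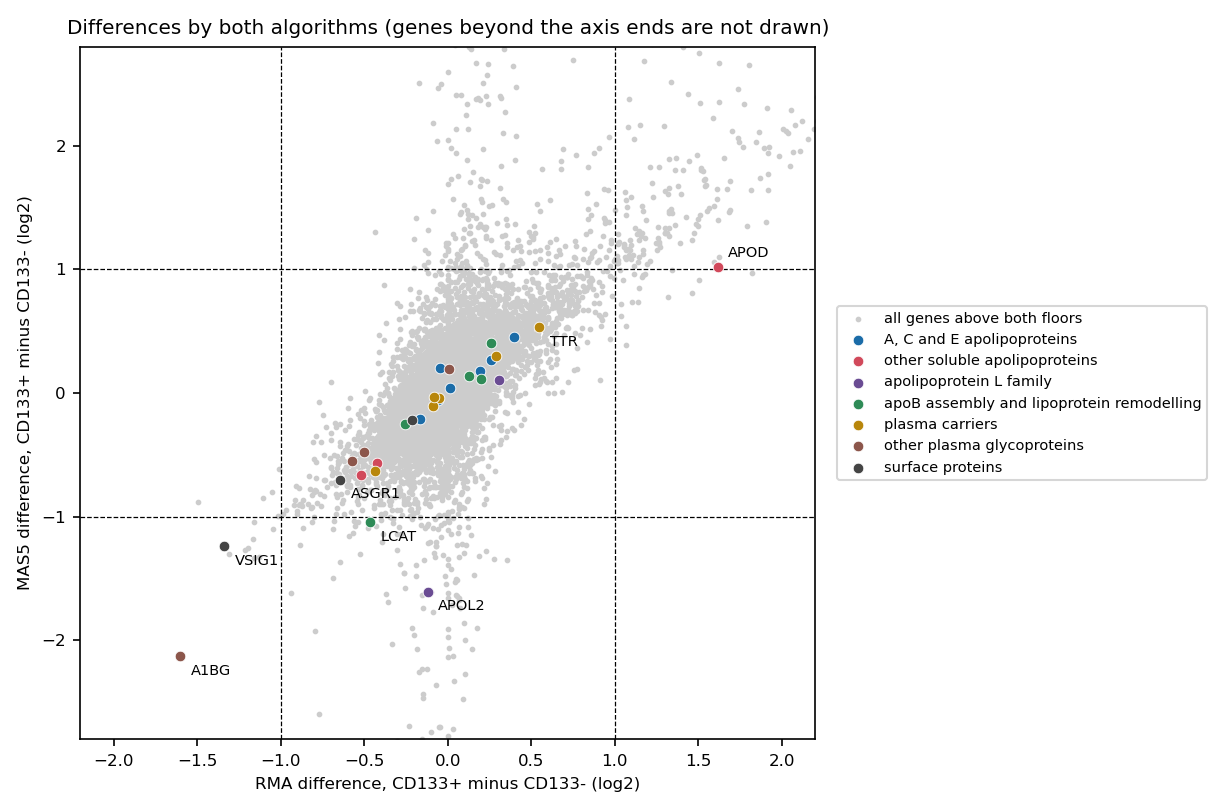
MAS5 difference against RMA difference (both CD133+ minus CD133-, log2) for the 30 members above both floors, coloured by role group, over all genes above both floors (grey); dashed lines mark 2-fold. A1BG and VSIG1 lie past 2-fold lower and APOD past 2-fold higher on both axes, while LCAT and APOL2 are past it in MAS5 signals as measured only, the CD133+ signal of APOL2 being under the MAS5 floor.

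The size of a member's difference depended on which of its probe sets was read. For 13 of the 18 members with several probe sets above the floor, the dimmest one gave a lower difference than the brightest. ALB differed by -0.05 on the probe set with RMA values of 13.57 in CD133+ and 13.63 in CD133- cells, by 0.05 and -0.14 on the intermediate ones, and by -0.42 on the dimmest, whose MAS5 signals were 583 in CD133+ and 829 in CD133- cells. The dimmest probe sets of AMBP, RBP4 and APOA1 differed by -0.40, -0.37 and -0.31. APOB, APOM, APOC1, APOE and VSIG1 went the other way. A like lean appeared in a part of all genes, picked by a limit chosen after the values were seen. In these 228 genes, 5 members among them, the brightest probe set had a mean RMA value of at least 11. Their dimmest probe set lay at least 2 below it. Their median difference was -0.02 on the brightest and -0.14 on the dimmest probe sets. In 71.5% of these 228 genes the dimmest probe set was the lower one, and in 4 of the 5 members among them. Without that limit the shares were 51.3% of all 6042 genes with several probe sets above the floor and 72.2% of the 18 members. The cause was not tested.

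**Figure D4:**
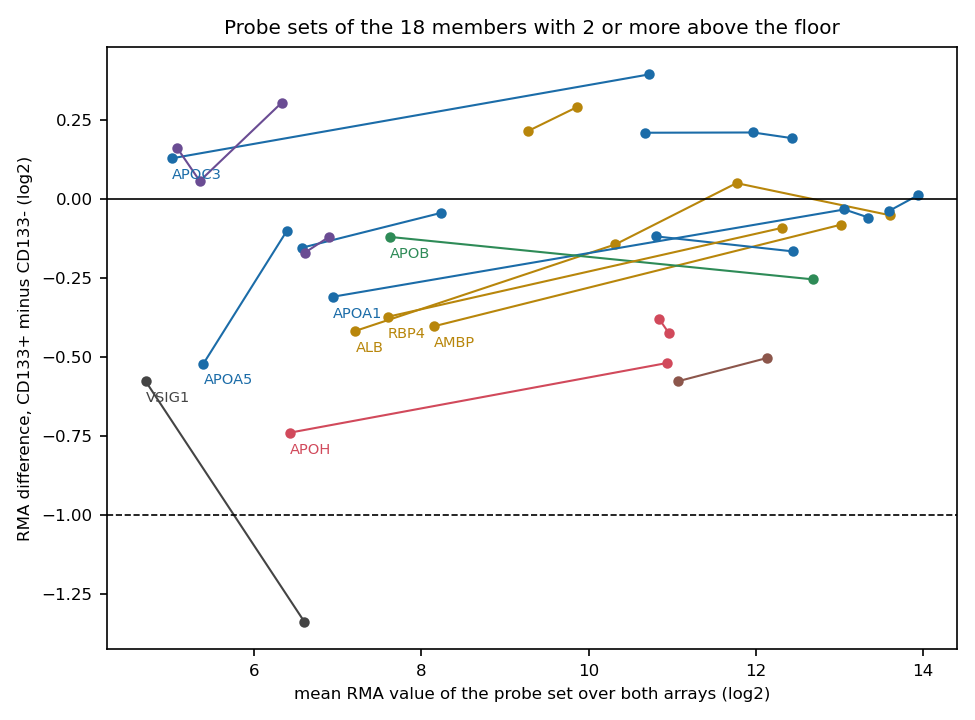
RMA difference, CD133+ minus CD133- (log2, vertical), against the mean RMA value of the probe set (log2, horizontal) for the 18 members with several probe sets above the floor; lines join probe sets of 1 gene and colours are the role groups. The lines of ALB, RBP4, AMBP and APOA1 start between -0.42 and -0.31 at the dim end and come close to 0 at the bright end.

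Promoter sequences from RefSeq (GRCh38.p14) matched 28 of the 44 listed genes. They are shown for members with 1 promoter in the table, above the floor, that differed by at least 0.5 (A1BG, AGT, APOH and AHSG, all lower in CD133+ cells) and for the pair of highest signal that differed by less than 0.1 (APOA2 and ALB), where the sequence held a searched motif. Those are the 250 bases before the start, 5′ to 3′ on the gene's strand, with motif letters in capitals. The A1BG promoter is at chr19:58353493-58353742 (minus strand), that of AGT at chr1:230714123-230714372 (minus strand), that of APOH at chr17:66229416-66229665 (minus strand) and that of ALB at chr4:73404037-73404286 (plus strand).
A1BG: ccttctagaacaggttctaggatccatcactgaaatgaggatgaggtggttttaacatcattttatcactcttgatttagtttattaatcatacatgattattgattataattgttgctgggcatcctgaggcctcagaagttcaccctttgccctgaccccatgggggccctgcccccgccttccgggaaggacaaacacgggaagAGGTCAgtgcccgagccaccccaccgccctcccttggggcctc
AGT: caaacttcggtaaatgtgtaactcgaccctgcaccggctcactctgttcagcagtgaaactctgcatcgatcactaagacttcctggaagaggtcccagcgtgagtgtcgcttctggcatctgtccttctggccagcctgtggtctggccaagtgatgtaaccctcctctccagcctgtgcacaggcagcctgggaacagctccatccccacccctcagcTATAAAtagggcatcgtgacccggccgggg
APOH: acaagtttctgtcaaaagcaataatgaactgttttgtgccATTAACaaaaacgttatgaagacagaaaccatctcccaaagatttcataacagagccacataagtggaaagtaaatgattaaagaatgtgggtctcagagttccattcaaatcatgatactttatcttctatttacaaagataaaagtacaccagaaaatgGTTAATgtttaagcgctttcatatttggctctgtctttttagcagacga
ALB: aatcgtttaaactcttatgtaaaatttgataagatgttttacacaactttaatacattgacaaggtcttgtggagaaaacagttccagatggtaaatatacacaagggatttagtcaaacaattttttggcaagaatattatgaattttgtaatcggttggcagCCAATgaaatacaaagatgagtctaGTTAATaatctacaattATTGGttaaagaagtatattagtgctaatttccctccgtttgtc

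Motifs were read on both strands of the window from 250 bases before to 50 after the start. TATAAA is the box that helps to place transcription starts, and GTTAAT is part of the site of the hepatocyte factor HNF1. Nuclear receptors such as HNF4 have AGGTCA as part of their sites. The further motifs were CCAAT and TTGCGCAA, which is the core of a palindromic C/EBP site. A1BG held AGGTCA 43 bases before the start, AGT held TATAAA 30 bases before it, and APOH held GTTAAT 49 bases before it and, on the other strand, 210 bases before it. ALB, which hardly differed on its brightest probe set, held GTTAAT 61 bases and CCAAT 86 and 44 bases before the start. No searched letters were found in the windows of AHSG and APOA2. The 35 member windows belong to 28 listed genes, of which 20 lay above the floor. Among the genes with matches are APOC4, LIPC and SAA4, whose expression is not analysed here. Of the 35 windows, 31.4% held TATAAA, 14.3% GTTAAT, 28.6% AGGTCA and 42.9% CCAAT. Among all 35116 windows the shares were 11.5%, 6.88%, 13.8% and 34.6% for the same motifs. TTGCGCAA was in 0.151% of all windows and in 0 of the member windows; the longer C/EBP palindrome that contains it was in 0 of all windows. A match is a string of letters and not a bound site. Members that were lower and ALB, which was close to equal, both held such strings.

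Other genes of the lipoprotein pathway were counted in the same way. Of 41 listed receptors, transporters, secretion factors and regulators, 33 had a probe set of their own and 26 lay above the floor, 9 higher and 17 lower with a median of -0.04. Of all genes above the floor, 51.1% were lower. By MAS5, 25 genes of the list lay above the MAS5 floor, 12 higher and 13 lower with a median of -0.02. Of all genes, 49.5% were lower by MAS5. Within 0.5 lay 22 of the 26, against 93.8% of all genes, and 0 were at least 2-fold lower, against 0.116%. CUBN, the endocytic receptor cubilin that takes up HDL and albumin in kidney and intestine, had 5.54 in CD133+ and 3.93 in CD133- cells. It was the 1 gene past 2-fold in the values as measured, and at least 1.61-fold higher against the floor. Of all genes, 1.65% were at least 2-fold higher. ABCG5, a sterol exporter subunit, was the lowest with -0.57. SCARB1, the HDL receptor, ABCA1, which loads lipid onto APOA1, and DGAT2, which makes triglyceride, differed by -0.13, -0.02 and -0.14. Of 16 further secreted liver proteins, 14 lay above the floor, 5 higher and 9 lower with a median of -0.12. ITIH1, a heavy chain of the inter-alpha-trypsin inhibitor, was the only one of these 14 past 2-fold, with 6.54 in CD133+ and 7.85 in CD133- cells. The share of all genes at least 2-fold lower was 0.116%. PLG, the plasmin precursor, and SERPINC1, antithrombin, were lower by 0.90 and 0.61, whereas CP and C3 were higher by 0.42 and 0.32. The fibrinogen chains FGA, FGB and FGG differed by 0.08, 0.16 and 0.02.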

How the data were processed

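Per the labels' protocols, Trizol served to extract total RNA of the sorted cells, which was then amplified with biotin labelling. Each population has 1 array: its MAS5 and RMA columns were taken as the same hybridization, as only the algorithm separates their labels. The MAS5 columns hold linear signal intensity per probe set as deposited by the authors, with a mean of 500.1 on both arrays after trimming 2% from each end. The RMA columns hold log2 values per probe set, per the labels; the authors' deposited values run from 1.33 to 14.2. The submitters' processing notes name MAS5, RMA and GCOS without versions. For RMA, software and jointly processed arrays were not given in the sources used here. MAS5 scaling and quantile normalization, a step of RMA, would both remove a global shift.

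The platform annotation gave 41097 of 54675 probe sets exactly 1 gene symbol, 1801 several and 11777 none; symbols were updated through Entrez numbers for 41043. The probe set of highest mean RMA value represented each gene. A gene was counted as bright when its brighter RMA value exceeded 4.86, or its brighter MAS5 signal 91.8, the medians over probe sets; this is no detection call. A fold against a value under the floor is given as a bound. Genes were counted at 2-fold in the values as measured. No test is possible with 1 array each, and the number of arrays limits the precision.

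Members, role groups and lists were chosen with earlier results of these arrays known. All members are accounted for; those past 2-fold and the extremes of each role group above the floor are given in full. The counting was run on simulated data in which all probe sets of a gene shifted alike, noise was small and MAS5 followed RMA. This checks the code only, since the spread between real probe sets and algorithms was not simulated. Computations used Python 3.11.15, numpy 2.4.6 and pandas 2.3.3.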

Additional observations from a re-analysis of the deposited data

How the results depend on the processing

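No paired analysis was possible because each population has 1 array. The members' count past 2-fold stood at 1 higher and 2 lower by RMA. In MAS5 signals as measured 5 were lower, APOL2 and AZGP1 with CD133+ signals below the MAS5 floor. With the mean over probe sets 1 was lower, and with the dimmest probe set above the floor, an alternative chosen after seeing the data, 1 was lower, since VSIG1 dropped out. With a floor at the 75th percentile (RMA 6.79) 0 were higher, as APOD was no longer counted. Without a floor 3 were lower by RMA, as AZGP1, below the floor in both populations, was then counted. The median of the apolipoprotein L genes was -0.75 by MAS5, over 2 genes, against 0 by RMA. The median of the other soluble apolipoproteins was -0.17 without a floor, which adds APOF, against -0.43 with it. The median of the plasma carriers was -0.39 with the dimmest probe sets, against -0.07. The other group medians, and the median over all members, moved by less than 0.24, the SD between probe sets of a gene, under every alternative tried. Of single members, 5 of 30 moved by more than that under MAS5, 1 of 33 with the mean over probe sets, 4 of 31 without probe sets ending in _x_at or _s_at, and 7 of 33 with the dimmest probe set; no member past 2-fold by RMA changed sign. A1BG and APOD have 1 probe set each, so of these settings only MAS5 could have changed their sign. Centring on all genes shifted each by the same 0.01, so it could move none of 33 by more than 0.24. No detection call accompanies the values, so signal over background was judged by the floor alone.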

Other observations

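Members were also counted by signal. Among members whose brighter RMA value exceeded 11, 11 of 14 were lower in CD133+ cells, with a median difference of -0.13, from -0.58 for AGT to 0.55 for TTR; of all 622 genes in that range 59.2% were lower, with a median of -0.02. Between 8 and 11, 3 of 6 members were lower, with a median of 0.08, and 57.8% of all genes. Among the 13 members between the floor and 8, 5 were lower and the median was 0.01, with 47.0% of all genes lower. Probe sets of high signal gave the smaller differences for ALB, AMBP, RBP4 and APOA1 as described above.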
